A study of Mus musculus with 9 samples.

Results

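The nuclear-encoded subunits of oxidative phosphorylation were followed at the level of mRNA in 3 kinds of mouse B cell. They were taken from the deposited gene table by symbol: names beginning Nduf (letters a, b, c, s or v and a digit), Sdha to Sdhd, and names beginning Uqcr, Cox4 to Cox8 or Atp5. This rule found 84 of 22178 listed genes. Of these, 35 belong to complex I, 4 to complex II, 8 to complex III, 19 to complex IV and 15 to ATP synthase. The remaining 3 match by name but are not structural subunits: Cox7a2l, a factor that joins complexes III and IV, and Atp5s and Atp5sl, since renamed Dmac2l and Dmac2. Ndufa4 and Ndufa4l2 are counted with complex IV, where the Ndufa4 protein is found.

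RNA with polyA tails was sequenced from 3 groups of 3 libraries, all on a backcrossed C57BL/6 background. B2 cells, the conventional B cells of lymphoid organs, were isolated from spleen, with VH12B1-8/Vk4 as the strain. B1 cells, typical of the body cavities, were isolated from the peritoneal cavity, with B1-8VH12/Vk4 as the strain. B2B1 cells share that site and strain label, and about 30 days passed between the induced switch of their receptor and their isolation. The labels give no ages, sort gates or means of the switch and do not say whether replicates are separate animals. P-values thus measure the spread between these libraries, part or all of which may be technical in B1. Libraries with and without Xist, the RNA of the inactive X in females, occur within B2 and within B2B1 (values below). The libraries of each of these groups thus do not all come from the same animal, though part of their spread may still be technical. Against B2, cell type, organ and strain label change together and cannot be told apart. Sex, as read from Xist, was also not balanced between the 3 groups, and its part in the results was not tested.

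Oxidative phosphorylation runs in the inner mitochondrial membrane. Complexes I and II take electrons from NADH and succinate and pass them to ubiquinone, complex III hands them to cytochrome c, and complex IV passes them to oxygen. Complexes I, III and IV pump protons, and ATP synthase lets these protons back to make ATP. Complex II is also an enzyme of the tricarboxylic acid cycle and is encoded wholly in the nucleus. The other complexes combine nuclear-encoded subunits with a few made from mitochondrial DNA, which were not analysed here. In lymphocytes the pathway is known to supply resting cells with ATP and to be enlarged when cells are activated. NRF1, GABP and YY1 are transcription factors known for binding promoters of many of these genes.

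The letters of the NRF1 motif stand in the promoters of some members on which the results below turn. This motif, the 10 capital letters in the next 3 lines with the sixth letter left free, was searched on both strands in the 250 bases before each RefSeq start (GRCm38.p6). It was found for 13 of the 67 members with a usable window (19.4%) and for 4.23% of 27018 genes. Sdha and Sdhd are shown because they belong to 1 enzyme and were called in opposite directions on the TPM scale as deposited, though Sdha lost its call under median-of-ratios scaling, and Atp5g2 because its call was the firmest between B2B1 and B1. Each line gives 30 bases, 5′ to 3′ on the gene's strand, with the NRF1 match in capitals.

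Sdha: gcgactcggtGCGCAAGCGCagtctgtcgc

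Sdhd: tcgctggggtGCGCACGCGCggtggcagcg

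Atp5g2: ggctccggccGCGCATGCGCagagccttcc

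The Sdha stretch lies at chr13:74350231-74350260 on the minus strand and is 1 of 3 matches in its window. Its capitals run from 10 to 1 bases before the RefSeq start. The Sdhd stretch lies at chr9:50603909-50603938 on the minus strand, with the match from 79 to 70 bases before the start. The Atp5g2 stretch lies at chr15:102671070-102671099 on the minus strand, with the match from 42 to 33 bases before the start. Among members with a window, the match was present for 4 of 16 called higher, 1 of 7 called lower and 8 of 42 not called in B1 against B2. For B2B1 against B2 it was present for 6 of 36 called higher, 1 of 6 called lower and 6 of 23 not called. A GABP motif, CCGGAAGT, was present for 3 of 67 members (4.48%) and 3.23% of all genes. A YY1 motif, AAGATGG, was present for 2 of 67 (2.99%) and 5.19% of all genes. The 3 motifs were counted separately, and a match is a run of letters, not a measured site.

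Cox7a1 and Atp5sl, the members with the widest relative changes among those above 1 TPM in every library, had no match to the NRF1 motif in their windows. Atp5sl has 2 RefSeq starts, and the window of the second holds the YY1 motif, outside the bases printed. The bases before their annotated exons, which hold none of the 3 motifs, are printed in lower case throughout: chr7:30183921-30184143 on the plus strand for Cox7a1 and chr7:25619164-25619413 on the plus strand for Atp5sl.

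Cox7a1: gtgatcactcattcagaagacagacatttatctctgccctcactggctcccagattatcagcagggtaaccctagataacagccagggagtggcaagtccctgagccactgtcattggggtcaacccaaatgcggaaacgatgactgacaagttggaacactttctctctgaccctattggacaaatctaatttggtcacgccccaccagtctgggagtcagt

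Atp5sl: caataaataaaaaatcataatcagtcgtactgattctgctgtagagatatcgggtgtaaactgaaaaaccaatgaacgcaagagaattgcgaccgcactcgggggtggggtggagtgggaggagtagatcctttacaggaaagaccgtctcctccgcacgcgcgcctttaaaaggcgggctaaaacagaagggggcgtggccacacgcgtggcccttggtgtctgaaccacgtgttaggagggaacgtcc

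The values are TPM, a length-corrected share of a library's transcripts that allows levels of different genes to be set side by side but keeps no depth. The listed genes of a library summed to between 894515 and 943043 TPM, and between 10711 and 10945 genes reached 1 TPM. B cell markers summed to 10300 to 10600 TPM in B2, 8940 to 10100 in B2B1 and 8820 to 11000 in B1. Of these 7 markers, 0 were called higher and 4 lower in B2B1 against B2, with a median log2 fold change of -0.919. In B1 against B2, 1 was called higher and 3 lower, with a median of -0.336. For comparison, 42% and 33.9% of all tested genes were called lower. Between B2B1 and B1, 3 markers were called lower in B2B1, against 12.1% of all tested genes. Of 9 macrophage markers, 8 were listed, and they summed to 3.12 to 4.93 TPM in B2, 152 to 356 in B2B1 and 119 to 163 in B1. Itgam, which peritoneal B1 cells are also known to express, Emr1 and Lyz2 carried these sums. Of 3 tested macrophage markers, 3 were called higher in B2B1 and 2 in B1 against B2, with median log2 fold changes of 5.014 and 3.766. For comparison, 21% and 18% of all tested genes were called higher. Between B2B1 and B1, 1 was called higher in B2B1, against 6.93% of all tested genes. Csf1r was at 2.13 TPM or less and Cd14 at 1.45 or less in every library. T cell markers summed to 13 to 16, 20.2 to 26.3 and 25.9 to 32.2 TPM in B2, B2B1 and B1, and neutrophil and mesothelial markers to under 2 TPM in every library. Dendritic cell markers summed to 17.8 to 20 TPM in B2, 1.85 to 2.07 in B2B1 and 1.7 to 1.98 in B1. NK cell markers summed to 11.8 to 16.5 TPM in B2, 0.683 to 1.5 in B2B1 and 0.973 to 1.55 in B1. Proliferation genes summed to 284 to 303 TPM in B2, 334 to 497 in B2B1 and 245 to 481 in B1. The part of these other cells and of proliferation in the results below was not tested.

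Summed over its members, each complex was highest in B2B1 by its mean. Complex IV showed the widest relative gap between the means of B2 and B2B1, and its summed level was 2553, 2692 and 2752 TPM in the B2 libraries, 3475, 3121 and 3390 in B2B1 and 3201, 3118 and 2945 in B1. All B2B1 and B1 libraries lay above all B2 libraries, while B2B1 and B1 overlapped. ATP synthase summed to 4134 ± 105 TPM in B2, 5036 ± 222 in B2B1 and 4510.2 ± 243 in B1 (mean ± SD, n = 3 here and throughout), with every B2B1 library above every library of the other groups. Complex I summed to 3614 ± 88.2, 4007 ± 207 and 3757 ± 232 TPM in the same order. Complex III summed to 1442 ± 43.3, 1663 ± 95.6 and 1526 ± 101 TPM. For both of these the B2B1 libraries lay above the B2 libraries, and B1 overlapped B2B1 and B2. Complex II differed least between the same means, at 435 ± 8.84, 469 ± 13.9 and 431 ± 19.9 TPM in B2, B2B1 and B1. All 84 members together made up 1.38% ± 0.0301 of the listed TPM in B2, 1.59% ± 0.074 in B2B1 and 1.504% ± 0.0424 in B1. In bulk samples, fewer cells of a type and less RNA per cell cannot be told apart.

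**Figure D1:**
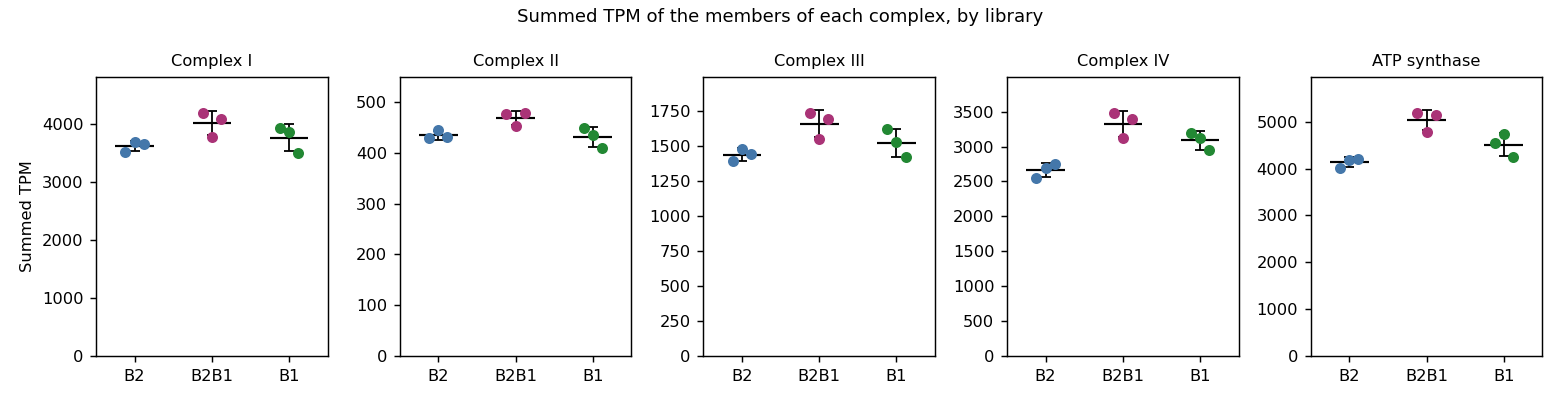
Summed TPM (vertical axis, from 0) of the members of each complex in each library, by group; points are libraries, long bars the mean of 3 libraries and error bars 1 SD. The complex IV points of B2 lie below those of B2B1 and B1, whereas complex II stays between 410.0 and 477 TPM in all 9 libraries.

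Of the 84 members, 78 had a mean of at least 1 TPM over the 9 libraries and were tested with limma on log2(TPM + 1), with p-values adjusted over all 11099 genes tested. A member was called at an adjusted p under 0.05. The 6 that were not tested are tissue-restricted or little expressed forms: Cox4i2, Cox6a2 and Cox8c were listed at 0 in every library, and Cox7b2, Cox8b and Ndufa4l2 reached at most 1.06, 0.56 and 0.14 TPM.

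Compared with B2, B2B1 cells had 40 members called higher and 7 called lower of 78, that is 51.3% and 8.97%, where 21% of all tested genes were called higher and 42% lower. The 40 include Atp5j, whose values may be failed estimates, as described with ATP synthase. The median log2 fold change was 0.225 over the members and -0.19 over all tested genes. In B1 against B2, 18 members were called higher and 8 lower, that is 23.1% and 10.3%, against 18% and 33.9% of all tested genes. The medians were 0.10 over the members and -0.135 over all genes. The share of members called higher in B1 was thus near the background, and that called lower was below it. Both comparisons use the same B2 libraries. Between B2B1 and B1, 7 members were called higher and 1 lower in B2B1, that is 8.97% and 1.28%, against 6.93% and 12.1% of all tested genes. The share called higher was close to the background with TPM as deposited. With median-of-ratios scaling, described next, 23 of 78 were called higher and 1 lower there, against 9.79% and 8.05% of all genes.

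The groups did not overlap for 45 members higher and 8 lower in B2B1 against B2 (all genes, 24.5% and 47.7%), for 26 and 12 in B1 against B2 (21.9% and 39.8%), and for 17 and 1 in B2B1 against B1 (12% and 23.7%). Because the median of all genes lay below 0 on the TPM scale, directions depend on the scaling. With median-of-ratios scaling, which brings the median of all genes to 0.02 in B2B1 and 0.01 in B1 against B2, the calls became 63 higher and 1 lower for B2B1 and 40 higher and 2 lower for B1. Under that scaling 31.5% of all genes were called higher and 27.3% lower in B2B1, and 25.6% and 22.2% in B1. All members called higher with TPM as deposited were also called higher under it, and those called lower are given with their value under it. Under quantile normalization Uqcrh, Cox7a2l and Atp5a1 lost their higher calls in B2B1 against B2.

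**Figure D2:**
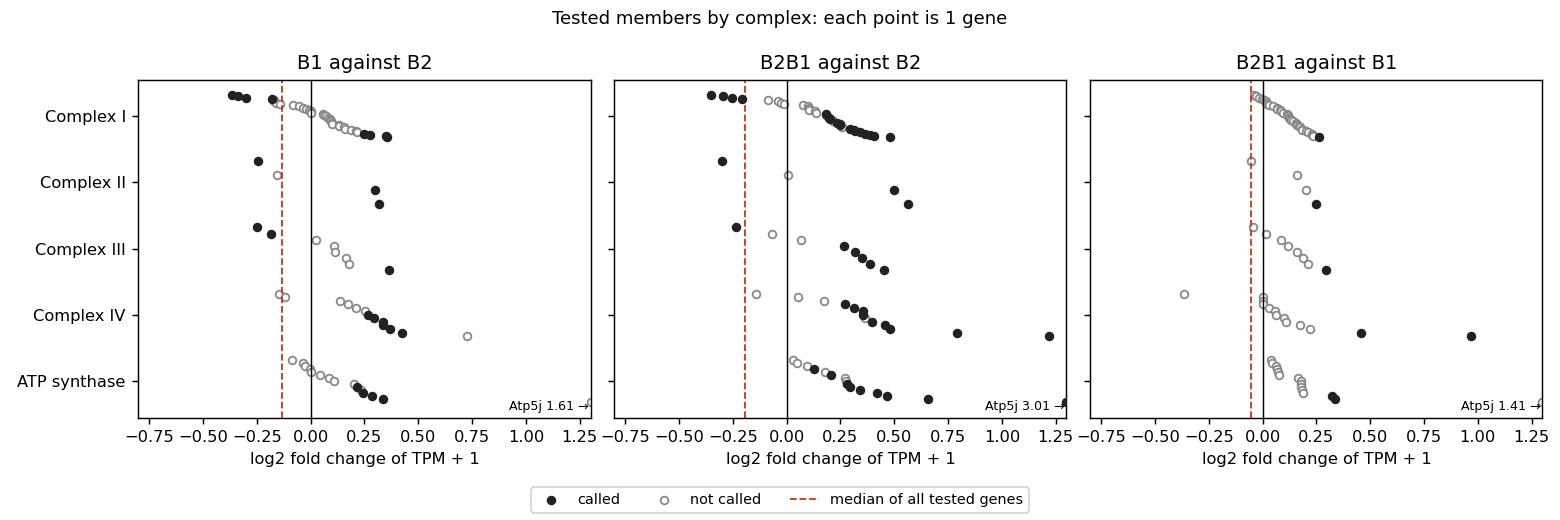
Log2 fold change of TPM + 1 (horizontal axis) of each tested subunit gene, in rows by complex, for the 3 comparisons; filled points were called at a limma adjusted p under 0.05 and the dashed line is the median of all tested genes. With TPM as deposited, complex IV and ATP synthase have no filled point below 0 against B2. Atp5j, whose values may be failed estimates, lies off the scale at the value printed.

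Complex I has a core of 7 nuclear-encoded subunits that carry the flavin and the iron-sulfur clusters or line the ubiquinone site, and many supernumerary subunits around it. In B2B1 against B2, 13 of 28 supernumerary subunits were called higher and 1 lower. Of the 7 core subunits, 1 was called higher and 3 lower, where 21% of all genes were called higher and 42% lower. In B1 against B2 the supernumerary subunits had 3 calls higher and 2 lower, and the core 1 higher and 2 lower, against 18% and 33.9% of all genes. The core's share of lower calls was thus near the background in both. Under median-of-ratios scaling the supernumerary subunits had 24 higher and 0 lower in B2B1 and 13 and 0 in B1, and the core 3 and 0 in B2B1 and 2 and 1 in B1. The ratio of summed supernumerary to summed core TPM, which does not depend on the scaling of a library, was 4.42, 4.31 and 4.49 in B2. It was 5.35, 4.90 and 5.02 in B2B1 and 4.90, 4.88 and 4.94 in B1. Both peritoneal groups lay above B2 in every library.

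Ndufb6, a supernumerary subunit of the membrane arm, was at 41.65, 41.2 and 44.5 TPM in B2. In B2B1 it was at 58.7, 59.6 and 60.6 TPM, and in B1 at 57.2, 59.1 and 47.8. No library of either group reached down to B2, and the log2 fold change was 0.48 for B2B1 (SE 0.08, limma adjusted p = 0.000835) and 0.35 for B1 (SE 0.08, limma adjusted p = 0.00618). Ndufb5 and Ndufc2, also of the membrane arm, were called higher in both comparisons, with log2 fold changes of 0.365 and 0.41 in B2B1 and 0.35 and 0.27 in B1. The Ndufc2 call in B1 was lost without B1 replicate 1 or 2 or B2 replicate 1 or 3, at adjusted p of 0.0641 to 0.119. Ndufa13, known also as GRIM-19, had a log2 fold change of 0.39 in B2B1 (limma adjusted p = 0.00592) and was not called in B1 (0.155, adjusted p = 0.195).

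Ndufs7, a core subunit that holds the last iron-sulfur cluster before ubiquinone, was at 118, 133 and 122 TPM in B2. It was at 98.3, 98.1 and 95.1 TPM in B2B1 and at 104, 96.5 and 93.9 in B1. All peritoneal libraries lay below all B2 libraries. Its log2 fold change was -0.34 in B1 (SE 0.06, limma adjusted p = 0.00203), with -0.18 and still called under median-of-ratios scaling, and -0.35 in B2B1 (limma adjusted p = 0.00117), with -0.13 and no longer called under that scaling. Ndufv1, which binds NADH, had log2 fold changes of -0.30 in B1 and -0.25 in B2B1, both called. Under median-of-ratios scaling they were -0.145 and -0.03, neither called. Ndufs1, which carries several iron-sulfur clusters, was called lower in B2B1 at -0.21, but stood at 0.015 under that scaling. That call was also lost with quantile normalization and without any B2 library or B2B1 replicate 1 or 2, at adjusted p of 0.0509 to 0.723.

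Ndufs8 was the core subunit called higher in both comparisons. It was at 102, 111 and 109.8 TPM in B2, at 126, 133 and 144 in B2B1 and at 132, 137 and 117 in B1, with both peritoneal groups above B2 and overlapping each other. The change was 0.315 on the log2 scale in B2B1 (limma adjusted p = 0.00588) and 0.25 in B1 (limma adjusted p = 0.0224). The call in B1 was lost without B1 replicate 1 (adjusted p = 0.0643), B1 replicate 2 (0.0615) or B2 replicate 1 (0.0839). Ndufs3 (-0.09 in B2B1, -0.17 in B1) and Ndufv2 (0.18, 0.00) were not called. The supernumerary members called lower were Ndufs4, at -0.36 in B1 and -0.30 in B2B1, and Ndufa9 at -0.18 in B1. Under median-of-ratios scaling Ndufs4 was at -0.21 and -0.075 and Ndufa9 at -0.02, none of them called lower. The Ndufs4 call in B2B1 was lost too without B2 replicate 2 (adjusted p = 0.0801) or B2B1 replicate 2 (0.0745).

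Complex II, succinate dehydrogenase, has a catalytic pair that faces the matrix, the flavoprotein Sdha and the iron-sulfur protein Sdhb, and a pair of membrane anchors, Sdhc and Sdhd. On the TPM scale as deposited, Sdha was called lower and both anchors higher in B2B1 and in B1 against B2. Sdha was at 177, 173 and 176 TPM in B2, 138, 142 and 146 in B2B1 and 156, 144 and 143 in B1. Its B2 libraries lay above all others, and B2B1 and B1 overlapped. The log2 fold change was -0.30 in B2B1 (SE 0.05, limma adjusted p = 0.00101) and -0.245 in B1 (SE 0.05, limma adjusted p = 0.00426), and -0.07 and -0.09 under median-of-ratios scaling, where neither was called.

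Sdhd was at 77.7, 87.2 and 81.3 TPM in B2, 129, 118 and 118 in B2B1 and 103, 108 and 96.6 in B1. The 3 groups did not overlap, with B2 lowest and B2B1 highest. Its log2 fold change was 0.56 in B2B1 (SE 0.07, limma adjusted p = 0.00011) and 0.32 in B1 (SE 0.07, limma adjusted p = 0.00425) against B2. B2B1 against B1 gave 0.25 (limma adjusted p = 0.0369). That last call was lost in 9 of the alternatives listed in the closing section. Sdhc followed the same order, at 61.3, 66.7 and 63.8 TPM in B2, 97.4, 87.6 and 87.8 in B2B1 and 80.9, 81.05 and 74.9 in B1, again without overlap between groups. It was called in both comparisons with B2, at 0.50 and 0.30. Sdhb was not called in any comparison, with log2 fold changes of 0.005 in B2B1 and -0.155 in B1 against B2, and stood at 0.23 (called higher) and 0.00 under median-of-ratios scaling.

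Within each library, the summed TPM of the anchors over that of the catalytic pair was 0.479, 0.528 and 0.508 in B2. It was 0.905, 0.834 and 0.755 in B2B1 and 0.691, 0.769 and 0.719 in B1. B2 lay below both peritoneal groups in every library, while B1 and B2B1 overlapped at 1 library each. A common scaling factor cancels from this ratio.

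**Figure D3:**
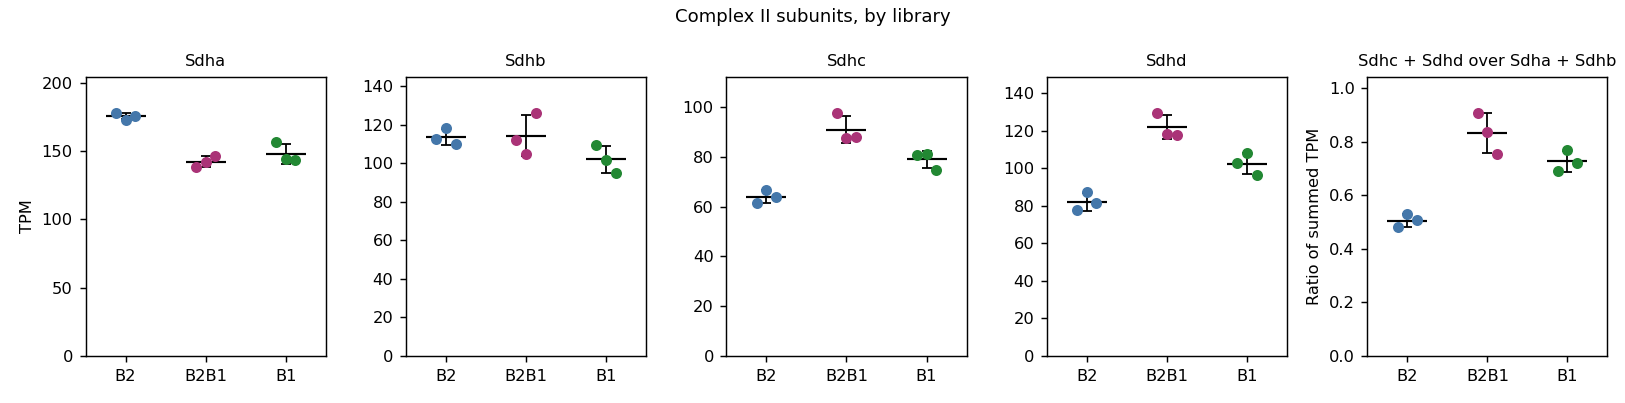
TPM (vertical axis, from 0) of the 4 complex II subunits in each library and, at the right, the ratio of summed anchor to summed catalytic TPM; points are libraries, long bars the mean of 3 and error bars 1 SD. Sdha is highest in B2, Sdhc and Sdhd are lowest in B2, and the ratio is at most 0.528 in B2 and at least 0.691 elsewhere.

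Complex III gave a similar contrast between its large core proteins and its other subunits under the naming rule. Cyc1, a complex III subunit outside that rule, was called lower in B2B1 and B1 against B2, at -0.52 and -0.50. It is not in the counts and sums given here. Uqcrc1 was at 146, 147 and 149 TPM in B2, 121, 123 and 131 in B2B1 and 114, 140.1 and 118 in B1. B2 was highest in every library. The log2 fold change was -0.24 in B2B1 and -0.25 in B1, both called, and -0.01 and -0.09 under median-of-ratios scaling, where neither was called. Both calls were also lost without any single B2 library, and without B2B1 replicate 1 or 2 and B1 replicate 1 or 3 in their own comparisons, at adjusted p of 0.056 to 0.0805. Uqcrc2 was called lower in B1 at -0.18, which became -0.03 under that scaling, and the call was lost without B1 replicate 3, B2 replicate 1 or B2 replicate 2 (adjusted p of 0.0615 to 0.0832). In B2B1 it was at -0.07 and not called, and at 0.16 and called higher under that scaling.

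Of the other 6 subunits under the naming rule, 5 were called higher in B2B1 and 1 in B1. Uqcrfs1, the Rieske iron-sulfur protein, was at 86.3, 96.1 and 86.8 TPM in B2, 107, 119.9 and 117 in B2B1 and a mean of 100.4 ± 0.367 in B1, a stepwise order without overlap. In log2 terms it changed by 0.35 in B2B1 (SE 0.06, limma adjusted p = 0.00129), and the value in B1 was 0.16 (limma adjusted p = 0.0615). Uqcr11, a small subunit, was called higher in both, at 0.45 in B2B1 and 0.37 in B1, although B1 replicate 3 (106 TPM) lay within the B2 range. Its B1 call (limma adjusted p = 0.0465) was lost in 11 alternatives: library weights (0.0537), no filter (0.0725), only the 6 libraries compared (0.0738), and leaving out any library but B1 replicate 3 (0.0562 to 0.148). Uqcr10, Uqcrq and Uqcrh were called in B2B1 at 0.39, 0.32 and 0.27, and Uqcrb was not called in any comparison. The Uqcr10 call was lost without B2 replicate 1 (adjusted p = 0.0648) or 2 (0.0628). The summed TPM of these 6 over Uqcrc1 and Uqcrc2 was 3.96 to 4.15 in B2, 5.27 to 5.77 in B2B1 and 4.84 to 5.80 in B1.

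Complex IV, cytochrome c oxidase, had 9 of 13 tested members called higher in B2B1 and 6 in B1, and none called lower in either with TPM as deposited. At an unadjusted p under 0.05 the counts were 10 and 8 in either direction, where 66.9% and 57.9% of all tested genes passed. Cox6a1 was the member of its complex nearest to a lower call, at -0.14 in B2B1 (adjusted p = 0.0637) and -0.145 in B1 (adjusted p = 0.0675). Under median-of-ratios scaling it stood at 0.09 and 0.01. In B2B1 it was called lower with quantile normalization (adjusted p = 0.0258), equal listed totals (0.0362), library weights (0.0336), only the 6 libraries compared (0.0293) and without B1 replicate 2 (0.0252). In B1 it was called lower with library weights (0.0151) and without B1 replicate 2 (0.0118).

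Cox6c, a small structural subunit, was at 216, 253 and 229 TPM in B2, 449, 333 and 437 in B2B1 and 297, 271 and 314 in B1. The 3 groups did not overlap. Its log2 fold change was 0.79 in B2B1 (SE 0.12, limma adjusted p = 0.000373) and 0.34 in B1 (SE 0.12, limma adjusted p = 0.0395) against B2, and 0.46 between B2B1 and B1 (limma adjusted p = 0.0286). The last call was lost with quantile normalization, with only the 6 libraries compared and without B1 replicate 1 or 2 or B2B1 replicate 1 or 3, at adjusted p of 0.0545 to 0.085. The Cox6c call in B1 against B2 was not kept under every alternative either.

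Cox7c, a further small subunit, was at 269, 305 and 279.9 TPM in B2, 455, 347 and 376 in B2B1 and 400.0, 383 and 364 in B1. Both peritoneal groups lay above B2 and overlapped each other. B2B1 differed from B2 by a log2 fold change of 0.455 (limma adjusted p = 0.00327) and B1 by 0.425 (limma adjusted p = 0.00603). Cox6b1, on the intermembrane face, Cox7b, Cox8a and Ndufa4 were also called higher in both comparisons, at 0.395, 0.48, 0.27 and 0.36 in B2B1 and 0.34, 0.37, 0.27 and 0.29 in B1. The Ndufa4 call in B1 was lost without B2 replicate 1 (adjusted p = 0.0561). Cox7b is X-linked, as are Ndufa1 and Ndufb11. Xist, the RNA of the inactive X in females, was at 0.412 TPM in B2 replicate 2 and at 0.461 and 0.355 in B2B1 replicates 1 and 2, against 180 TPM or more in the other libraries. B2 and B2B1 thus hold libraries with and without Xist, and all B1 libraries have it. Cox7b was at 73.4 TPM in that B2 library, with the other B2 libraries at 70.9 and 76.9.

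Several positions of complex IV can be filled by paralogs, of which 1 form is used in most tissues and another in muscle, lung or testis. Cox4i1, Cox6a1 and Cox8a were at means of 211, 384 and 370.0 TPM in B2, while Cox4i2, Cox6a2 and Cox8c were listed at 0. Cox6b2, a form known from testis, had means of 1.10, 1.84 and 2.80 TPM in B2, B2B1 and B1 and was not called. Cox4i1 was not called in any comparison, at log2 fold changes of 0.17 in both B2B1 and B1 against B2.

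Cox7a1, the form known from heart and skeletal muscle, was the exception. It was at 4.92, 3.73 and 4.68 TPM in B2, 12.7, 14.2 and 8.67 in B2B1 and 7.285, 4.01 and 5.485 in B1. All B2B1 libraries lay above all others, and B1 overlapped B2. The log2 fold change was 1.22 in B2B1 against B2 (SE 0.22, limma adjusted p = 0.00109) and 0.97 against B1 (SE 0.22, limma adjusted p = 0.0166). It was 0.25 and not called in B1 against B2 (limma adjusted p = 0.359). Without B2B1 replicate 1 or 2, the adjusted p for B2B1 against B1 was 0.0518 or 0.0552, and with only those 6 libraries 0.0527. Its paralog Cox7a2 remained the more abundant: the ratio of Cox7a1 to Cox7a2 was 0.0368 to 0.0531 in B2, 0.0701 to 0.132 in B2B1 and 0.0386 to 0.0591 in B1.

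ATP synthase had 9 of 15 members called higher in B2B1 and 4 in B1, and none called lower in either. The 9 include Atp5j, whose values may be failed estimates, as described below. At an unadjusted p under 0.05 the counts were 12 and 4 in either direction, against the same 66.9% and 57.9% of all genes. Under median-of-ratios scaling 15 of 15, again with Atp5j, were called higher in B2B1 and 9 in B1. Atp5b, the catalytic beta subunit, was at 525, 527 and 552 TPM in B2, 528, 567 and 562 in B2B1 and 490.4, 588 and 502 in B1, with all groups overlapping. It was not called, but under median-of-ratios scaling it was called higher in B2B1 at 0.27. Atp5a1, the alpha subunit, was called in B2B1 at 0.13 (limma adjusted p = 0.0488) and not in B1 (0.08). Atp5c1, the gamma subunit of the rotor stalk, was at 221, 247 and 226 TPM in B2, 332, 285 and 314 in B2B1 and 283, 274 and 264 in B1, with B2 lowest in every library. It was called at 0.42 in B2B1 and 0.24 in B1, and the call in B1 was not kept under every alternative.

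The c subunit, which forms the membrane ring turned by protons, is made from 3 genes that differ in the import signal and give the same mature protein. Atp5g2 was the most abundant, at 434, 461 and 444 TPM in B2, 733, 682 and 697 in B2B1 and 531, 614 and 547 in B1. The 3 groups did not overlap. Its log2 fold change was 0.66 in B2B1 (SE 0.07, limma adjusted p = 3.3e-05) and 0.34 in B1 (SE 0.07, limma adjusted p = 0.00243) against B2, and 0.32 between B2B1 and B1 (limma adjusted p = 0.0108). Atp5g1 was called higher in B2B1 at 0.47 and in B1 at 0.28, the latter lost without B1 replicate 2 or B2 replicate 1 or 3 (adjusted p of 0.0664 to 0.0945). Atp5g3 was not called, at 0.18 and 0.00. Atp5g2 gave 60.2%, 59.3% and 59.2% of the summed TPM of the 3 genes in B2, 67.3%, 65.6% and 64.5% in B2B1 and 63.6%, 62.9% and 64.3% in B1, so B2 was lowest throughout.

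Of the stalk and membrane subunits, Atp5h and Atp5e were called higher in B2B1, at 0.28 and 0.29, and Atp5h also in B1 at 0.215. The Atp5h call in B1 was not kept under every alternative. Atp5l, a membrane subunit, was at 300.4, 312 and 316 TPM in B2, 412, 359.7 and 405 in B2B1 and 348, 287 and 298 in B1. B2B1 stood above both other groups, which overlapped. It was called in B2B1 against B2 at 0.34 (limma adjusted p = 0.00593) and against B1 at 0.34 (limma adjusted p = 0.0229). The call against B1 was lost with only those 6 libraries and without B1 replicate 3 or B2B1 replicate 1 or 3 (adjusted p of 0.0675 to 0.0735). Atp5j, coupling factor 6 of the stalk, was listed at 2.47e-08, 3.29 and 0.00016 TPM in B2, 5.25, 22.1 and 14.7 in B2B1 and 0, 11.1 and 8.999 in B1. Such values beside the other subunits, all at means above 89 TPM in B2, may be failed estimates, and no fold change is given. Its call in B2B1 against B2 (limma adjusted p = 0.0242) was lost without B2 replicate 1 or 3 or B2B1 replicate 2 or 3, at adjusted p of 0.0616 to 0.0791.

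Between B2B1 and B1, which share the peritoneal origin and the strain label, the members called higher in B2B1 were Sdhd, Uqcrq (0.30), Ndufa11 (0.26), Cox6c, Cox7a1, Atp5g2 and Atp5l. By Xist, sex was not balanced between these groups. Xist was at 0.461, 0.355 and 180 TPM in the B2B1 libraries and at 212, 298 and 223 in B1. The part of sex in these calls was not tested. Ndufa11, a membrane subunit of complex I, was at 16.5, 15.4 and 16.8 TPM in B2B1 and 13.7, 13.2 and 13.3 in B1, with B2 between 14.7 and 15.6. Of the 8 calls including Atp5sl, only Atp5g2 was kept under every alternative run, and 1 of the 8 was kept with only these 6 libraries in the model.

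Among the 3 members that are not structural subunits, Atp5sl changed most. This gene, at chr7:25619414-25625551 on the plus strand and now named Dmac2 for a role in complex I assembly, was at 102, 96.1 and 100.4 TPM in B2, 15.2, 15.8 and 14.7 in B2B1 and 24.6, 27.1 and 17.2 in B1. The groups did not overlap, with B2 far above. Its log2 fold change was -2.63 in B2B1 (SE 0.14, limma adjusted p = 8.65e-07) and -2.09 in B1 (SE 0.14, limma adjusted p = 4.19e-06), and both calls held under every alternative. Between B2B1 and B1 it was -0.54 (limma adjusted p = 0.0279), a call lost with only the 6 libraries compared (adjusted p = 0.0895) and without B1 replicate 1 or 2 or any single B2B1 library (0.0537 to 0.0877). Cox7a2l was called higher in B2B1 at 0.19 and in B1 at 0.28, and Atp5s, at a mean of 9.71 TPM in B2, was not called. The Cox7a2l call in B2B1 was also lost without any single B2 library or B2B1 replicate 2 or 3.

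**Figure D4:**
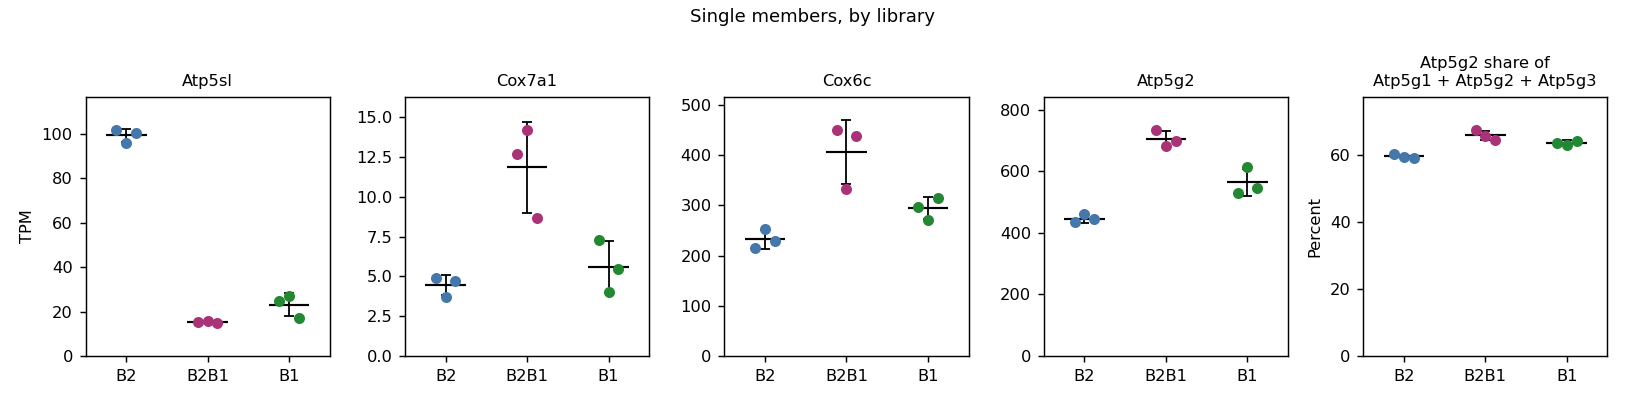
TPM (vertical axes, from 0) of Atp5sl, Cox7a1, Cox6c and Atp5g2 in each library and, at the right, Atp5g2 as a percentage of the summed TPM of the 3 c-subunit genes; points are libraries, long bars the mean of 3 and error bars 1 SD. Atp5sl is at 96.1 TPM or more in B2 and at 27.1 or less elsewhere, and the other 3 genes are highest in B2B1.

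Many subunit mRNAs are short, and fold changes ran with length. Against the annotated transcript length (GENCODE M21, median of coding transcripts), the log2 fold changes of the 78 tested members had a Spearman correlation of -0.40 in B2B1 and -0.39 in B1 against B2 (Pearson -0.315 and -0.35). These are correlations across genes of the same libraries, given as a description. Over the 10220 tested genes with a length (92.1%) they were -0.15 and -0.08 (Pearson -0.10 and -0.05). The 51 members under 1000 nt had a median log2 fold change of 0.27 in B2B1 and 0.13 in B1. The 27 longer members had 0.10 and -0.03. Over all genes the medians were 0.10 and 0.05 for the 840 under 1000 nt and -0.20 and -0.14 for the 9380 longer ones. Of the complex I core, Sdha, Sdhb, Uqcrc1 and Uqcrc2, all but Ndufs7 and Ndufs8 are among the longer members, and the part of length in their lower ratios was not tested.

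**Figure D5:**
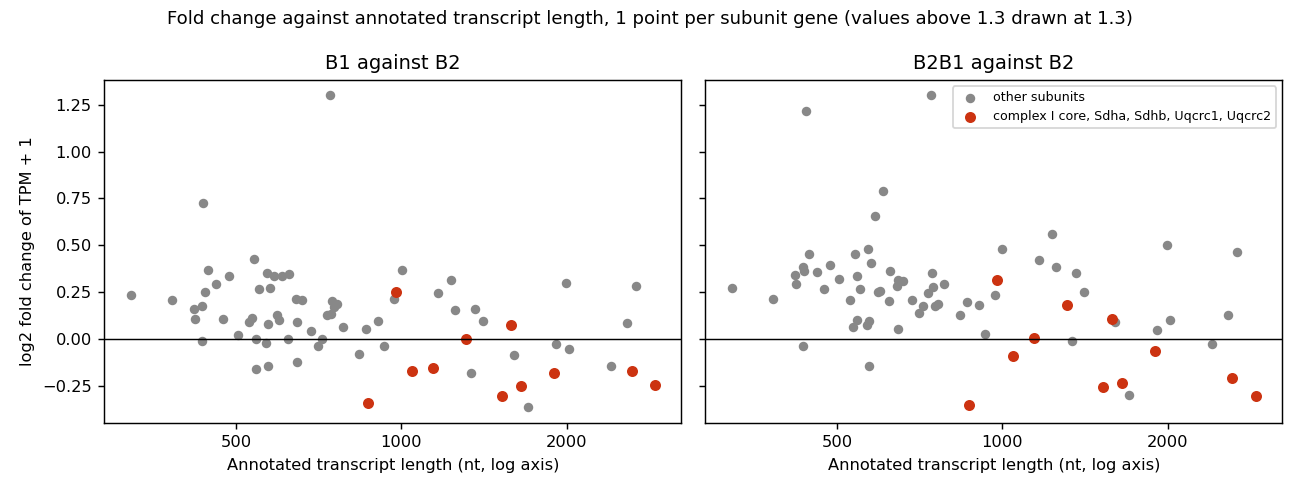
Log2 fold change of TPM + 1 (vertical axis, values above 1.3 drawn at 1.3) against annotated transcript length in nt (log axis) for B1 and B2B1 against B2, 1 point per structural subunit gene; red marks the complex I core, Sdha, Sdhb, Uqcrc1 and Uqcrc2. Short subunits lie mostly above 0, and the red points lie mostly to the right and lower.

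Genes that work beside the subunits were counted in the same fits, where 21% of all tested genes were called higher and 42% lower in B2B1, and 18% and 33.9% in B1, against B2. Under median-of-ratios scaling these shares were 31.5% and 27.3% in B2B1 and 25.6% and 22.2% in B1. Of 16 tested regulators of mitochondrial biogenesis, 1 was called higher and 11 lower in B2B1, and 1 higher and 9 lower in B1, against B2. Under median-of-ratios scaling the counts were 5 and 7, and 2 and 7. Tfam, which packages and transcribes mitochondrial DNA, was at 56.3, 55.75 and 53.65 TPM in B2, 24.5, 24.95 and 23.2 in B2B1 and 28.5, 26.45 and 27.9 in B1. B2 lay far above the other groups, with log2 fold changes of -1.16 and -0.98 (limma adjusted p = 8.2e-07 and 2.7e-06) and -0.94 and -0.82 under that scaling. Nrf1, whose motif was searched above, was called lower in both, at -0.74 and -0.53, and remained so at -0.52 and -0.38 under that scaling. Gabpb1, a subunit of GABP, was lower at -0.63 and -0.79, whereas its partner Gabpa was not called, at -0.01 and 0.01. Myc, a growth regulator, was the member called higher: 48.7, 76.7 and 76.1 TPM in B2, 101, 147 and 100.3 in B2B1 and 149, 241 and 198 in B1, without overlap against B2.

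Of 17 genes for electron carriers and ubiquinone synthesis, 3 were called higher and 4 lower in B2B1, and 1 higher and 7 lower in B1. Under median-of-ratios scaling the counts were 7 and 3, and 4 and 4. Cyc1, the cytochrome c1 subunit of complex III whose symbol falls outside the naming rule, was at 142, 138 and 149 TPM in B2, 95.9, 95.8 and 106 in B2B1 and 101, 105 and 96.6 in B1. B2 lay above both, at log2 fold changes of -0.52 and -0.50, and the calls remained at -0.30 and -0.34 under that scaling. Cycs, the cytochrome c that carries electrons to complex IV, went the other way at 0.56 and 0.34, both called.

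Of 18 genes of the tricarboxylic acid cycle, 1 was called higher and 9 lower in B2B1, and 1 and 5 in B1, which became 6 and 3, and 4 and 2, under median-of-ratios scaling. The lower calls were thus near the background shares in B2B1 and B1 with TPM as deposited. Dlst, a subunit of the 2-oxoglutarate dehydrogenase complex, was lower at -0.71 and -0.60, and Suclg2, of succinyl-CoA ligase, higher at 0.47 and 0.41. Cs, citrate synthase, often read as a gauge of mitochondrial content, was not called with TPM as deposited, at -0.03 and -0.065 on that scale. Its value under median-of-ratios scaling is not given here, and mitochondrial content was not read from it. Among 7 carriers of ATP, phosphate and protons, 6 were called higher in B2B1 and 3 in B1, and none lower, which became 7 and 6 higher under that scaling. Slc25a4, an exchanger of ADP and ATP, was at 113, 133 and 116 TPM in B2, 239, 255 and 241 in B2B1 and 228, 194 and 179 in B1. Both peritoneal groups lay above B2, at log2 fold changes of 1.02 and 0.725. Ucp2, an uncoupling protein family member, was higher at 0.51 and 0.89 and was lower in B2B1 than in B1 at -0.38 (limma adjusted p = 0.0236). That last call was lost under median-of-ratios scaling, where 5 of these 7 carriers were called higher and 0 lower in B2B1 against B1.

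Assembly factors were mixed. For complex I, 2 of 12 were called higher and 3 lower in B2B1, and 1 and 4 in B1, near the background for the lower calls in B1. Under median-of-ratios scaling the counts were 2 and 3, and 1 and 1. Ndufaf2 was called higher in both (0.62 and 0.475) and Timmdc1 lower in both (-0.50 and -0.44). For complex IV, 3 of 13 were called in each direction in B2B1, and 2 higher and 3 lower in B1, which became 4 and 3, and 4 and 2. Coa5 was higher at 0.62 and 0.43, and Taco1, needed to translate a mitochondrial subunit of the complex, lower at -0.61 and -0.685. For complexes II and III, Sdhaf1, which serves Sdhb, was 1 call of 6 in B2B1 (0.42), and Lyrm7 (0.41) and Ttc19 (-0.40) were the calls in B1. Under that scaling 3 were called higher in B2B1, and 1 higher and 1 lower in B1. For ATP synthase, Tmem70 and the inhibitor Atpif1 were called higher in both comparisons, at 0.39 and 0.39 in B2B1 and 0.41 and 0.32 in B1, and Atpaf2 lower in B2B1 at -0.55. Among 10 genes of fusion, fission and turnover, 1 was called higher and 3 lower in B2B1, and 2 and 1 in B1, which became 3 and 2, and 3 and 1. Bnip3, a receptor for mitophagy, had the widest change, at -1.97 and -1.64. Of 19 tested proliferation genes, 9 were called higher and 1 lower in B2B1, and 1 was called lower in B1, which became 11 and 1 in B2B1 and 0 in B1 under that scaling.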

How the data were processed

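The values were TPM per gene symbol in 9 libraries, deposited by the authors in 1 table of 22178 genes. Per the labels' protocols, RNeasy MICRO (Qiagen) and TruSeq RNA v2 (Illumina) kits were used. CASAVA 1.8.2, kallisto and mm10 are named in the submitters' processing notes. Not given in the sources used here are the kallisto version, the transcript set and the step from transcripts to genes. TPM keep no depth, so no count model, interval for counting error or floor could be given. No pair of libraries was identical (0 of 36).

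Groups followed the labels. Genes with a mean of at least 1 TPM were fitted as log2(TPM + 1) with limma 3.58.1 under R 4.3.3, by linear models with moderated variances that follow a mean trend, in 1 model over 9 libraries without covariates. Fold changes on this scale understate those of low genes. Two-sided p-values received a Benjamini-Hochberg adjustment within each of 3 comparisons. An exact permutation test of 3 against 3 cannot go below 0.1. The fit was tested on simulated data. Transcript lengths and gene coordinates come from GENCODE M21 (GRCm38), and promoters from RefSeq (GRCm38.p6). Same-numbered libraries are not said to share a mouse, and the correlations of their deviations from the group means ran from -0.0584 to 0.123, so numbers were not taken as pairs.

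Named members were, per complex and comparison, the 3 highest and 3 lowest log2 fold changes, all of complex II, paralog sets and the complex I core, plus up to 3 called genes per further list. Members needed to complete a small count (Ndufa9, Uqcrh, Atp5c1, Atp5e, Atp5h), and Cs, Gabpa, Cycs, Ucp2 and Xist, were picked with their values in view. Some genes that this rule names are not reported singly here. The members and lists were chosen with earlier results of these data known. The 13 mitochondrially encoded subunits were not analysed here, and neither was a second deposited table of signature genes. Alternatives were 2 other pseudocounts, no filter and a filter at 5 TPM, median-of-ratios and quantile scaling, only the 6 libraries compared, library weights, a replicate block and leaving out each library. Rescaling the listed genes to equal totals was added after seeing the data.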

Additional observations from a re-analysis of the deposited data

How the results depend on the processing

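The direction of the median fold change and of most member calls held under the alternatives run, but scaling set how many members passed. With median-of-ratios scaling, 40 members were called higher and 2 lower in B1 against B2 (median log2 fold change 0.261), 63 and 1 in B2B1 against B2 (median 0.453), and 23 higher and 1 lower in B2B1 against B1. Of all genes, 25.6% were then called higher and 22.2% lower in the first, 31.5% and 27.3% in the second and 9.79% and 8.05% in the third. Quantile normalization gave 34 higher and 2 lower (median 0.212) and 56 higher and 4 lower (median 0.333) against B2, where 22.3% and 25.8%, and 26.8% and 31.9%, of all genes were called. With only the 6 libraries compared, B2B1 against B1 had 1 call higher and 0 lower. A replicate block, with numbers not shown to pair libraries, gave 4 higher there, and 18 higher and 7 lower in B1 and 36 and 7 in B2B1 against B2.

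Leaving out 1 library at a time gave 10 to 19 higher and 5 to 10 lower calls in B1 against B2 (median 0.079 to 0.162), 27 to 42 and 4 to 8 in B2B1 against B2 (0.195 to 0.267), and 2 to 12 and 0 to 1 in B2B1 against B1 (0.063 to 0.165). B2 replicate 1 took the higher calls in B1 to 10. Lower calls fell to 5 without B1 replicate 3, B2 replicate 1 or B2 replicate 2, and, in B2B1 against B2, to 4 without B2 replicate 2 or B2B1 replicate 2. In B2B1 against B1 the higher calls were 12 without B1 replicate 2, 3 without B1 replicate 1 or 3, 4 without B2 replicate 1 or 3, and 2 without B2B1 replicate 1 or 3. In all, 12 of 26, 28 of 47 and 1 of 8 calls were kept under every alternative.

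Among the members followed singly through every alternative, signs turned for those named next, of which Ndufs1 in B2B1 against B2 had been called. Other members with fold changes near 0 were not followed in this way, so the list may not be complete. In B1 against B2, Atp5g3 was at 0.013 with equal listed totals, 0.155 with median-of-ratios, 0.119 with quantile and -0.079 to 0.046 without single libraries. Ndufv2 was at -0.003 with library weights and -0.101 to 0.07 without single libraries, and with median-of-ratios scaling Cox6a1 was at 0.012 and Sdhb at 0.002. In B2B1 against B2, median-of-ratios scaling gave Cox6a1 0.087, Ndufs1 0.015, Ndufs3 0.139 and Uqcrc2 0.161, and quantile gave Ndufs3 0.044 and Uqcrc2 0.055. Sdhb there was at -0.012 with equal listed totals and -0.066 to 0.064 without single libraries. Sdha in B2B1 against B1 was at 0.014 with median-of-ratios. The cause of these changes was not tested. Depth cannot be read from TPM, so members at a few TPM carry an unknown counting error.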
